A study of Sus scrofa with 6 samples.

Results

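The miRNA seed family that holds miR-32, miR-92a, miR-92b and miR-363 was examined in small RNA libraries of pig skin. Its members were chosen by name: every porcine row whose name, without the arm suffix, is miR-25, miR-32, miR-92a, miR-92b, miR-363 or miR-367. Of the 898 miRNAs in the table, 5 rows met this rule: ssc-miR-32, ssc-miR-92a, ssc-miR-92b-3p, ssc-miR-92b-5p and ssc-miR-363. The other 2 names, miR-25 and miR-367, were not analysed here. All libraries came from skin of Xiang pigs, a small Chinese breed, 3 from white skin (S02, S06 and S07) and 3 from black skin (S03, S04 and S05). In both groups the skin was cleaned with alcohol, freed of hair and frozen in an RNA preservative, and skin color is the 1 variable that the labels give, with no age, sex, body site or animal. The purpose given for the series is to find miRNAs that affect melanin in pigment cells. Whether libraries of 1 color were taken from different animals is not stated, nor whether white and black skin came from the same animals. The p-values therefore treat the libraries as unpaired and cover the spread among them, which may be technical.

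MicroRNAs guide Argonaute proteins to messenger RNAs and lower their translation or stability. Pairing runs mainly through the seed, a short stretch near the 5′ end of the mature miRNA, so that members of a seed family share many predicted targets. miR-92a is a product of the miR-17-92 cluster, known for its part in cell proliferation and in blood vessel growth, and it is abundant in blood cells. miR-363 comes from the related miR-106a-363 cluster, miR-92b from a locus of its own, and miR-32 from inside a protein-coding gene. miR-25, which carries the same seed, has been studied in alpaca melanocytes as a regulator of MITF, the transcription factor that directs pigment cell genes. The opposite arm of the miR-92b hairpin, miR-92b-5p, does not carry the family seed. These statements are background, and no mature sequence was used here.

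In the RefSeq gene table of Sscrofa11.1, the 4 family names with rows here matched 5 precursors. MIR32 lies on chromosome 1 at 250115904 to 250115973, inside TMEM245 (250080364 to 250181827), a gene for a membrane protein. The table gives gene bounds without exons, so exon and intron were not told apart. MIR92B lies on chromosome 4 at 94624285 to 94624364 between THBS3 (379 bases away) and MUC1 (1952 bases away). Neither has another annotated miRNA within 30000 bases. miR-92a has 2 precursors, MIR92A-1 on chromosome 11 at 60735358 to 60735437 and MIR92A-2 on chromosome X at 110113717 to 110113796. The first follows MIR17, MIR18A, MIR19A, MIR20A and MIR19B-1 within 782 bases. The second lies in a group of 6 precursors within 917 bases, together with MIR363-1 (110113552 to 110113631), MIR19B-2, MIR20B-1, MIR18B and MIR106A. The table has 1 row for ssc-miR-92a, so the products of its 2 precursors cannot be told apart.

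The family's 4 seed-bearing products were found in every library, and miR-92a led them in all 6. The values are RPM, in which the reads of a library add up to 1e+06, and 1 read was worth 0.0984 to 0.155 RPM. Levels were compared between miRNAs in reads, without a length correction. Whether reads of different miRNAs stand for molecules in the same proportion was not tested. In white skin ssc-miR-92a stood at 553.5 RPM in S02, 658.3 in S06 and 491.7 in S07, and in black skin at 529.8 RPM in S03, 448.1 in S04 and 451.9 in S05. The highest black library lay above the lowest white one, so the groups overlapped. In mean level it stood 71st of 898 miRNAs in white skin and 74th in black skin.

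ssc-miR-32 was the member that differed most between the skins. White skin held 41.9 RPM in S02, 35.5 in S06 and 52.0 in S07, while black skin held 205.9 RPM in S03, 140.7 in S04 and 140.1 in S05. The groups did not overlap, and the lowest black library was 2.69-fold above the highest white one. S03 stood highest of the black libraries, 1.47-fold above S05. ssc-miR-32 moved from 170th to 115th in mean level.

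ssc-miR-363 was next in black skin and varied more within each group. In white skin it stood at 39.2 RPM in S02, 40.3 in S06 and 67.2 in S07, and in black skin at 130.1 RPM in S03, 66.4 in S04 and 102.5 in S05. The groups touched at 1 point, where the black library S04 lay just under the white library S07. ssc-miR-92b-3p was the scarcest seed-bearing product, at 38.5, 28.7 and 29.7 RPM in white skin and 46.5, 37.4 and 42.0 RPM in black skin, in the same library order. The black library S04 lay under the white library S02, and the others were apart.

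**Figure D1:**
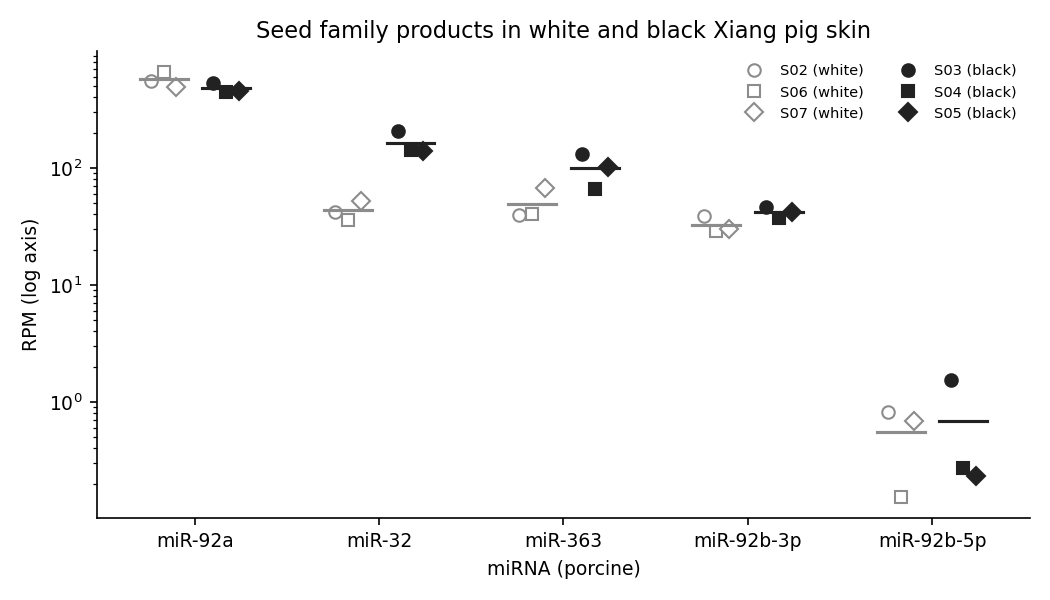
Level of the 5 family rows in each library, in RPM on a log axis, with open symbols for white skin, filled symbols for black skin and a bar at each group's mean. The black libraries of miR-32, from 140.1 to 205.9 RPM, all lie above the white ones, from 35.5 to 52.0 RPM, while the groups of the other rows overlap.

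In white skin miR-92b-3p was the lowest of the 4 in all 3 libraries, and the order of miR-32 and miR-363 changed from library to library. ssc-miR-32 averaged 43.1 ± 8.35, ssc-miR-363 48.9 ± 15.9 and ssc-miR-92b-3p 32.3 ± 5.40 RPM (SD, n = 3). miR-32 and miR-363 differed by less than their spread, and the range of miR-92b-3p overlapped that of miR-32. In S02 miR-32 stood above miR-363, and in S06 and S07 below it. In black skin the order was the same in all 3 libraries: miR-92a, miR-32, miR-363, miR-92b-3p. Their means in that order were 476.6 ± 46.1, 162.3 ± 37.8, 99.67 ± 31.95 and 41.9 ± 4.56 RPM (SD, n = 3). There the ranges of neighbours did not overlap, and the narrowest gap lay between miR-32 in S05 (140.1 RPM) and miR-363 in S03 (130.1 RPM). miR-92a exceeded miR-32 by 9.45-fold to 18.6-fold in the white libraries and by 2.57-fold to 3.22-fold in the black ones.

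Of the 4 members tested, 1 was called between black and white skin and it was higher in black. Over all 454 tested miRNAs, 7.05% were called, 3.96% as higher and 3.08% as lower in black skin. ssc-miR-32 was 3.76-fold higher in black skin by the group means. As log2(RPM + 1), black minus white, this was 1.88 with a standard error of 0.26 and a 95% interval of 1.30 to 2.46 (limma, p adjusted by Benjamini-Hochberg over the 454, adjusted p = 0.00328). A difference in bulk skin does not tell fewer cells of a type from less RNA per cell. Its call held in each fit that left out 1 library, with differences of 1.70 to 2.02 and adjusted p of 0.00703 to 0.0197 (limma). Those 6 fits called between 7 and 41 miRNAs in all.

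The other 3 members did not pass the test. ssc-miR-363 was 2.04-fold higher by the group means, a difference of 1.01 with a standard error of 0.33 (limma, adjusted p = 0.104). Its unadjusted 95% interval of 0.27 to 1.74 lay above 0, but the adjusted p missed the threshold. Leaving out S04 gave 1.27 (limma, adjusted p = 0.0731), leaving out S07 gave 1.25 (0.0762), and leaving out S03 gave 0.79 (0.319). ssc-miR-92b-3p differed by 0.37, with an interval of -0.20 to 0.95 (limma, adjusted p = 0.415). ssc-miR-92a differed by -0.25, with an interval of -0.68 to 0.18 (limma, adjusted p = 0.492). These intervals leave room for changes of either sign in miR-92a and miR-92b-3p.

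Among the 4 tested members 3 differences were above 0, with a median of 0.69, beside 227 of 454 above 0 and a median of 0.00 over all tested miRNAs. The RPM of 1 member did not overlap between the groups, beside 27.3% of all tested miRNAs (13.4% higher in black skin). The 4 tested members passed the filter on low values in both groups alike, since each had at least 185 reads in every library. Counting error was smaller than the spread between libraries. For ssc-miR-32 it came to at most 6.61% of the level, against a coefficient of variation of 19.3% in white and 23.3% in black skin (n = 3 each). For ssc-miR-92b-3p it was at most 7.35%, against 16.7% and 10.9%. Such counting errors cover counting alone, as amplified reads do not each stand for a separate molecule.

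**Figure D2:**
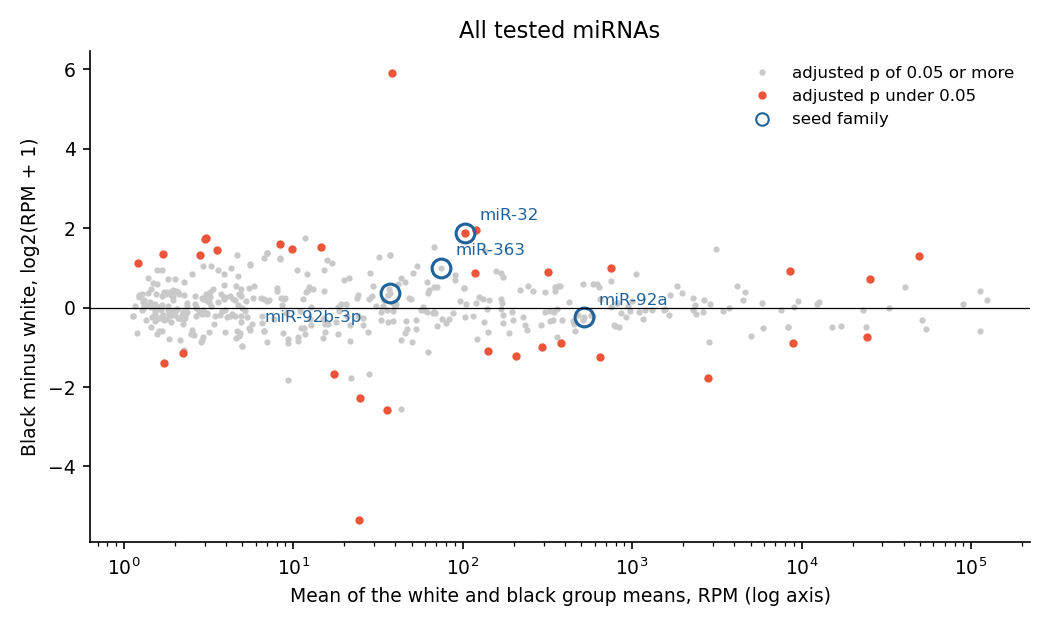
Difference between black and white skin on the log2(RPM + 1) scale against mean level in RPM (log axis) for all 454 tested miRNAs, with those of adjusted p under 0.05 (limma) in red and the 4 tested family members circled in blue. miR-32 at 1.88 is among the red points, and miR-363 at 1.01, miR-92b-3p at 0.37 and miR-92a at -0.25 are not.

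The total of the family moved less than its make-up. The 4 seed-bearing products summed to 673.1 RPM in S02, 762.7 in S06 and 640.7 in S07 of white skin, and to 912.4 RPM in S03, 692.6 in S04 and 736.5 in S05 of black skin. White skin averaged 692 ± 63.2 RPM and black skin 780 ± 116 RPM (SD, n = 3), with overlap. This sum was given no test, since the members were chosen with results known. The mean sum was 88.3 RPM higher in black skin, and this ranged from 22.4 RPM without S03 to 132 RPM without S04 on leaving out 1 library. It combines 119 RPM more miR-32, 50.8 RPM more miR-363 and 9.65 RPM more miR-92b-3p with a difference of -91.2 RPM for miR-92a, and the difference passed the test for miR-32 alone of these 4.

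Shares within the family do not depend on how a library was scaled. miR-32 made up 6.23%, 4.65% and 8.12% of the family's reads in S02, S06 and S07 and 22.6%, 20.3% and 19.0% in S03, S04 and S05. The groups were far apart, with means of 6.33 ± 1.74% for white and 20.6 ± 1.79% for black skin (SD, n = 3). miR-92a took 82.2%, 86.3% and 76.8% of the reads in the white libraries and 58.1%, 64.7% and 61.4% in the black ones, again with no overlap. Its mean share was 81.8 ± 4.79% for white and 61.4 ± 3.31% for black skin (SD, n = 3). The shares in a library add up to a whole, so higher shares of other members lower that of miR-92a. The RPM of miR-92a itself overlapped between the groups and was not called. The shares of miR-363 overlapped, at 7.20 ± 2.86% for white and 12.6 ± 2.60% for black skin (SD, n = 3). Those of miR-92b-3p overlapped too, at 4.70 ± 0.982% and 5.40 ± 0.303% (SD, n = 3).

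**Figure D3:**
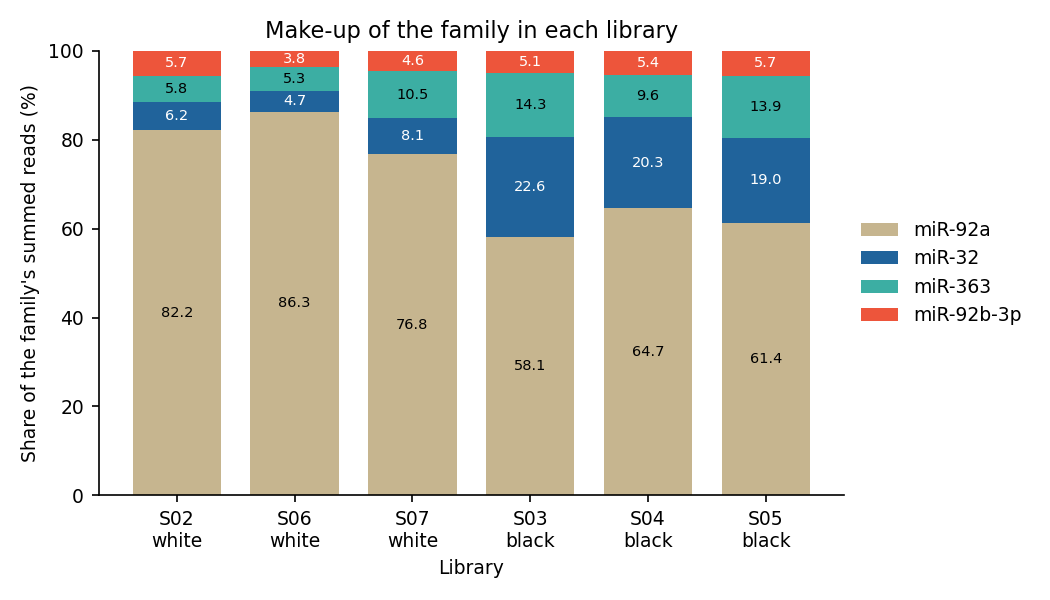
Share of each seed-bearing product in the family's summed reads, in percent, with 1 stacked bar per library, white skin on the left and black skin on the right. miR-92a fills 76.8% to 86.3% of the white bars and 58.1% to 64.7% of the black ones, and miR-32 4.65% to 8.12% against 19.0% to 22.6%.

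Ratios within a library tested whether members differed from each other in their change. Only miR-32, the called member, was set against the sum of the other 3, so this ratio gives no independent support for its call. The log2 ratio of miR-32 to the sum of the other 3 was -3.89 ± 0.42 for white and -1.94 ± 0.16 for black skin (SD, n = 3). The difference of 1.95 had a two-sided exact permutation p of 0.1, the smallest that 3 against 3 libraries allow, so the design cannot reach 0.05 in this test. All 6 pairs of members were compared in the same way, with p-values adjusted over the 6. In 5 of the 6 the log2 ratios of the groups did not overlap (exact permutation p = 0.1, adjusted 0.12), beside 29.6% of all pairs of tested miRNAs. The exception was miR-363 to miR-92b-3p (difference 0.63, exact permutation p = 0.2, adjusted 0.2). The 6 pairs share members and are not independent, and each of the other 5 held miR-32 or miR-92a.

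Relative to miR-92a in the same library, the other 3 members were all higher in black skin. The log2 ratio of miR-32 to miR-92a was 2.13 higher, that of miR-363 1.25 higher and that of miR-92b-3p 0.62 higher. None of these 3 ratios overlapped between the groups, beside 23.2% of all tested miRNAs whose ratio to miR-92a was higher in black skin without overlap. The 3 share miR-92a and are not independent. The ratio of miR-92b-3p to miR-92a lay between -3.55 and -3.40 in the black libraries and between -4.47 and -3.81 in the white ones. The log2 ratio of miR-32 to miR-363 was -0.15 ± 0.23 in the white libraries and 0.73 ± 0.32 in the black ones (SD, n = 3), a difference of 0.87 (exact permutation p = 0.1, adjusted 0.12).

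The opposite arm ssc-miR-92b-5p was close to the limit of detection. It had 6, 1 and 7 reads in S02, S06 and S07 and 12, 2 and 2 reads in S03, S04 and S05, or 0.155 to 1.55 RPM over the 6 libraries. S03 gave most of the black reads, and the groups overlapped. It did not pass the filter on low values and was not tested. Pooled reads were 14 in white and 16 in black skin, a ratio of 1.15 (95% exact interval 0.53 to 2.55, counting error alone), so a difference inside that interval was not detectable at this depth. The 5p arm made up 0.538% to 3.23% of the reads of both arms. The exact (Clopper-Pearson) 95% interval ran from 1.68% to 5.57% in S03, the highest, and from 0.0136% to 2.96% in S06, the lowest, so these intervals overlap.

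The miRNAs that share clusters with miR-92a and miR-363 were listed by name: miR-17, miR-18a, miR-19a, miR-20a and miR-19b for the first and miR-106a, miR-18b, miR-20b and miR-19b for the second. Of their 7 tested products 0 were called in either direction by limma, and also 0 by edgeR, DESeq2 and limma-voom, while 2 had an unadjusted p under 0.05 in limma, beside 25.6% of all tested miRNAs. Leaving aside calls, 6 of the 7 differences were above 0, with a median of 0.60. The abundant ssc-miR-17-5p and ssc-miR-20a gave -0.03 and 0.02 (limma, adjusted p = 0.933 and 0.971). Those 2 miRNAs share a seed with each other, not with miR-92a, and averaged 361 and 744 RPM for white and 359 and 762 RPM in black skin. The scarce ssc-miR-19a, with 2.15 ± 1.07 RPM for white and 4.99 ± 1.86 RPM for black skin, gave 0.94 (SD, n = 3; limma, adjusted p = 0.156). No product of miR-106a or miR-18b was analysed here. The lists for the clusters of miR-25 (miR-106b and miR-93) and miR-367 (miR-302a to miR-302d) had 0 rows.

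**Figure D4:**
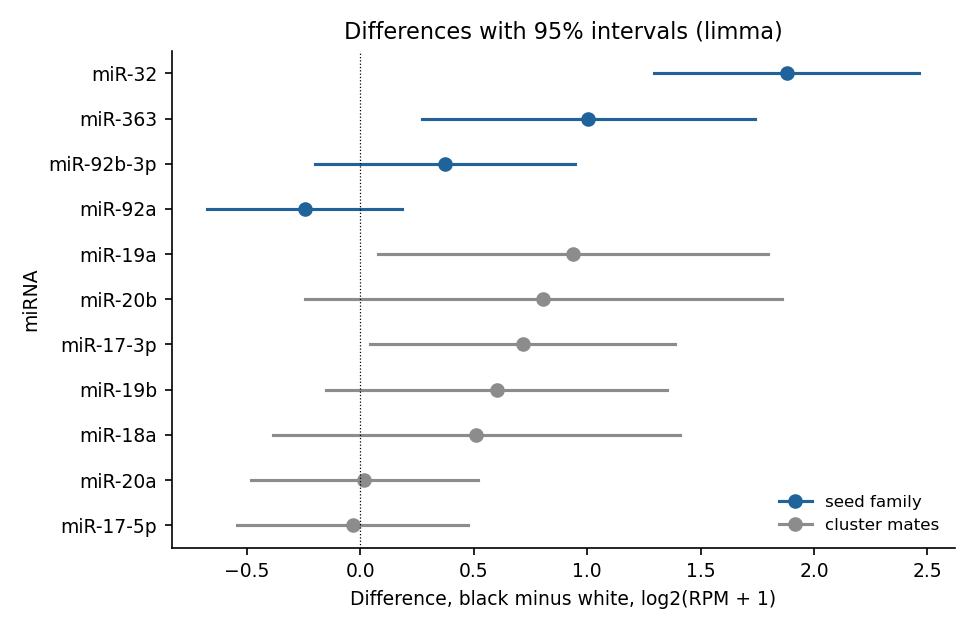
Difference between black and white skin on the log2(RPM + 1) scale, with its unadjusted 95% interval (limma), for the 4 tested family members (blue) and the 7 tested products of the clusters of miR-92a and miR-363 (grey). The interval of miR-32, 1.30 to 2.46, lies farthest from 0, and that of miR-92a runs from -0.68 to 0.18.

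Across the libraries the profile of miR-363 was less like that of the ssc-miR-92a row than like those of the 7 cluster products. The root mean square difference from miR-363 in centred log2(RPM + 1) values was 0.75 for miR-92a. It was 0.33 (ssc-miR-19a) to 0.61 (ssc-miR-20a) for the 7, as a description over 6 libraries. The ssc-miR-92a row does not tell its precursor on chromosome X from that on chromosome 11. Of the products 6 are listed for the cluster on chromosome 11 and 2 for the X-linked group, with ssc-miR-19b in both. Whether neighbouring precursors differ cannot be told from these rows. ssc-miR-20b, whose precursor lies in the X-linked group alone, stood at 3.01 RPM in S02, 1.70 in S06 and 4.03 in S07, and at 6.71 RPM in S03, 2.32 in S04 and 10.4 in S05. Like miR-363 it was lower in S04 than in the other black libraries, and its white and black values overlapped (0.81, limma, adjusted p = 0.321). ssc-miR-19b, made from precursors of both clusters, measured 38.5, 24.3 and 34.2 RPM in white and 54.0, 31.9 and 67.1 RPM in black skin (0.60, limma, adjusted p = 0.301). S04 was the lowest black library for 6 of the 7 cluster products and for miR-363, miR-92a and miR-92b-3p, and for 34.4% of all tested miRNAs. This count was made after the values were seen, and the cluster products share precursors and are not independent. miR-32 was at about the same level in S04 and S05.

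The tested miRNAs with a profile most like that of miR-32 were ranked by the same distance over the 6 libraries. The nearest were the predicted unconservative_6_663466 (0.26) and unconservative_1_93424 (0.29), followed by ssc-miR-143-3p (0.31), ssc-miR-490 (0.32) and ssc-miR-450a (0.35). The median distance over all other tested miRNAs was 1.02. All 5 were called as higher in black skin, which the measure of likeness favours since miR-32 was too (limma, adjusted p = 0.00314 for ssc-miR-143-3p). The predicted unconservative_6_663466 and unconservative_1_93424 had equal values in every library except S04 (3.00 against 2.73 RPM). They may therefore not be separate miRNAs, and the 5 may count 1 signal more than once. ssc-miR-143-3p, known from smooth muscle, is abundant, at 24337 to 31818 RPM in white and 62317 to 81596 RPM in black skin. The other 4 reached at most 8.65 RPM, where the pseudocount narrows differences. No other family member was among them.

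**Figure D5:**
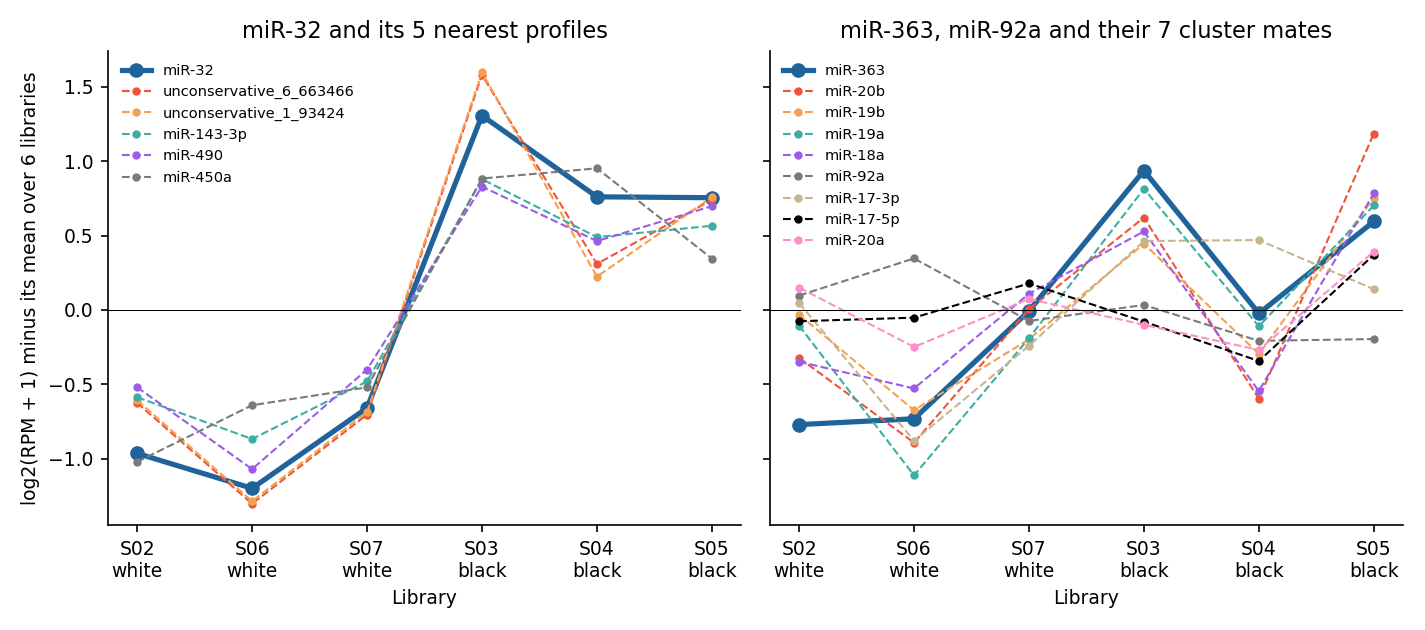
Centred log2(RPM + 1) values by library, with lines drawn to guide the eye since libraries have no order: miR-32 and its 5 nearest miRNAs on the left, and miR-363, miR-92a and their 7 tested cluster mates on the right. On the left all white values lie below 0 and all black values above it, and on the right S04 lies below S03 and S05 for miR-363 and most of the mates.

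Several cell types of skin could carry these miRNAs. Some single markers were higher in black skin, as miR-32 was, while other markers of the same lists were not called or were lower. Called counts of these lists stand beside 3.96% of all tested miRNAs called as higher and 3.08% as lower by limma. Of the endothelial list 2 of 2 tested products were called as higher in black skin by limma. They are the 2 arms of 1 hairpin, miR-126, and are not independent. Their summed level ran from 17322 to 23899 RPM in white and from 28989 to 35451 RPM in black skin. However, edgeR and limma-voom called 0 of the 2 and DESeq2 1. Of the smooth muscle list 1 of 4 was higher (ssc-miR-143-3p). This product made up most of the list's sums of 26728 to 34192 RPM against 64998 to 84502 RPM. The groups overlapped for ssc-miR-143-5p and ssc-miR-145-5p and not for ssc-miR-145-3p (limma, adjusted p = 0.215, 0.433 and 0.119). Of the leukocyte list 1 of 6 was higher by limma (ssc-miR-142-3p). DESeq2 called that and ssc-miR-342, which was lower (-0.88 in limma, no overlap between the groups). The other arm, ssc-miR-142-5p, overlapped between the groups (0.60, limma, adjusted p = 0.433). In the leukocyte list 3 of the 6 differences were above 0, with a median of 0.01. The list had overlapping sums of 1287 to 2484 RPM and 1573 to 2339 RPM, and its marker miR-223 was not analysed here. The erythroid list, of interest because miR-92a is abundant in blood cells, had 0 of 3 called by limma, edgeR and limma-voom. In limma 1 of the 3 had an unadjusted p under 0.05, beside 25.6% of all tested. DESeq2 called 1 as lower, ssc-miR-486 (-1.68, limma, adjusted p = 0.0743, no overlap between the groups). In contrast, ssc-miR-144 differed by 1.24 with overlap (limma, adjusted p = 0.284). Most of the list's overlapping sums of 1723 to 4914 RPM and 994 to 4298 RPM was ssc-miR-451. The melanocyte list had 1 of 5 lower by limma (ssc-miR-221-3p), and DESeq2 called that and ssc-miR-204, which stood at 57.7 to 71.1 RPM in white and 88.5 to 135 RPM in black skin (0.82, limma, adjusted p = 0.0804). The list had overlapping sums of 3308 to 5157 RPM and 2908 to 4611 RPM, and miR-211 was not analysed here. Their largest part was ssc-miR-146a-5p, at 1792 to 3540 RPM in white and 2186 to 3669 RPM in black skin. The sums therefore say little about ssc-miR-204, and whether they follow the number of melanocytes was not tested. The fibroblast and mesenchymal list had 1 of 6 lower, with overlapping sums of 33011 to 48989 RPM and 30102 to 39784 RPM. The epithelial and keratinocyte (5 tested), striated muscle (5), neural (3) and liver (1) lists had 0 called by limma and limma-voom and sums that overlapped. Of their 14 tested products 2 had an unadjusted p under 0.05 in limma, beside 25.6% of all tested miRNAs. Of the 14, edgeR and DESeq2 each called 1 (ssc-miR-206, a muscle miRNA). The 14 count 1 signal more than once, since ssc-miR-9 and ssc-miR-9-1 had equal values in every library. ssc-miR-206 was lower in black skin with overlap (-2.56, limma, adjusted p = 0.0804). White skin held 12.6 RPM in S02, 106 in S06 and 115 in S07, and black skin 14.6 RPM in S03, 4.77 in S04 and 8.21 in S05. The keratinocyte marker ssc-miR-205 was found in all 6 libraries, while the markers miR-203 and miR-141 were not analysed here. No product in these lists was at 0 in all libraries. The part of these cell types in the result for miR-32 was not tested.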

How the data were processed

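The deposited file is a single table in RPM. The unit was judged from the values, as every column adds up to 1e+06. The submitters' processing notes name Bowtie, without a version, and the build Sscrofa11.1, and do not say what each was used for. How the authors counted reads, which miRNA database they used and how they filtered is not given in the sources. Each value divided by the smallest one above 0 in its column was a whole number (100% of values, tolerance 0.001), and this recovered 6454685 to 10165949 reads per library. All 6 columns were used.

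limma 3.58.1 (R 4.3.3) with an intensity trend was run on log2(RPM + 1), black minus white, for the 454 miRNAs that edgeR 4.0.16's filterByExpr kept (minimum count 10, minimum total 15), with Benjamini-Hochberg adjustment and a threshold of 0.05. Fold changes on that scale are understated for scarce miRNAs. The scripts were tested on simulated data. Single ratios were compared with exact permutation tests (SciPy 1.17.1). Over all library pairs, chi-square tests of reads gave at least 311 per degree of freedom, so no library was a copy of another's reads. This does not tell whether libraries shared an animal. No member had a row of identical values. Alternatives were other scaling, filters, pseudocounts, edgeR, DESeq2 1.42.0 and limma-voom on recovered reads, and leaving out each library.

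Members and lists were chosen with earlier results of these data known. Besides the members, the miRNAs named are cluster mates, the 5 nearest profiles of a called member and the 2 nearest of the others, and markers. Marker miRNAs and the S04 comparison outside this rule were picked after their values were seen.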

Additional observations from a re-analysis of the deposited data

How the results depend on the processing

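In the 11 alternatives with all libraries, each of the 4 tested members kept its sign and its side of the threshold, and 1 member, miR-32, was called in each. The difference of miR-32 ran from 1.69 (pseudocount 10) to 1.92 (edgeR), with adjusted p up to 0.00888 (limma-voom). That of miR-363 ran from 0.89 to 1.03, with an adjusted p of 0.0527 in DESeq2 and up to 0.132 otherwise. Leaving out predicted identifiers before scaling left 242 tested miRNAs and moved miR-32 from 1.88 to 1.80 and miR-92a from -0.25 to -0.34. The median over these 242 was -0.14, and relative to it miR-32 gave 1.93 and miR-92a -0.20. That median is over a smaller set than the main one, so its shift mixes rescaling with the change of set. The values relative to it are therefore not comparable with the main ones. Without 1 library, miR-92a ran from -0.34 to -0.13 and miR-92b-3p from 0.30 to 0.50, neither called. Calls over all miRNAs numbered 32, against 53 in DESeq2. They ranged from 7 to 41 without 1 library, with 9 on leaving out S03, 18 for S04, 7 for S05 and for S06, and 14 for S07. The arm ratio of miR-92b was not tested, since the 5p arm did not pass the filter, so its alternatives were not run. No paired analysis was possible, since the labels name no animal. No library number recurs, so the numbers do not tell whether black and white skin came from the same animals. Depth limits statements on ssc-miR-92b-5p, where 3 reads are worth 0.295 to 0.465 RPM.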

Other observations

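Among the members that were not called, the nearest profiles differed from member to member. For ssc-miR-363 they were the predicted unconservative_13_1409489 (root mean square difference 0.18 on the log2 scale over 6 libraries, median over all tested miRNAs 0.72) and unconservative_9_1038012 (0.21). The first stood at 31.1 RPM in S02, 30.2 in S06 and 44.3 in S07, and at 72.6 RPM in S03, 43.9 in S04 and 82.7 in S05, and like miR-363 it overlapped between the groups at S04 and S07. For ssc-miR-92a they were ssc-miR-128, a miRNA best known from neurons (0.11, median 0.42), and unconservative_13_1404894 (0.12). ssc-miR-128 measured 178.1, 238.6 and 140.8 RPM in white and 186.7, 143.3 and 152.9 RPM in black skin, with overlap. For ssc-miR-92b-3p they were ssc-miR-192 (0.090, median 0.44) and unconservative_12_1259573 (0.091). ssc-miR-192, abundant in gut and liver, measured 62.3, 48.0 and 49.9 RPM in white and 84.4, 69.7 and 65.1 RPM in black skin, without overlap, and did not pass the test (0.45, limma, adjusted p = 0.286).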
